A study of Homo sapiens with 30 samples.

Results

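GREM1, a secreted antagonist that binds bone morphogenetic proteins (BMPs), was followed together with 2 of the ligands it binds, BMP2 and BMP4, and with 5 genes that BMP signalling is known to switch on, ID1, ID2, ID3, SMAD6 and SMAD7. These 8 genes were found by matching the listed symbols to the Ensembl identifiers of the count table, 8 of its 60675 identifiers, and all 8 were among the 17459 genes that passed the filter on low counts. The members were chosen by their known place in the BMP pathway and with expression values of these libraries in view, which means that they were also selected on measured levels; which value decided is not recorded beyond the lead of GREM1. GREM1 is therefore described without a test, and tests of the other 7 genes are not independent of that choice.

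Ligands such as BMP2 and BMP4 bring receptor kinases together at the cell surface. The receptors phosphorylate SMAD1 and SMAD5, which enter the nucleus with SMAD4 and raise transcription of the ID genes and of SMAD6 and SMAD7. ID proteins lack a DNA-binding region and sequester E-proteins, transcription factors that drive differentiation. SMAD6 and SMAD7 are inhibitory SMADs that close a negative feedback loop, SMAD6 mainly on the BMP branch and SMAD7 on both the BMP and the TGF-beta branch. Antagonists such as gremlin (GREM1), noggin and chordin act outside the cell by holding the ligand away from its receptors. The question put to these data was whether GREM1 and the BMP readouts moved in opposite directions over extracts and doses; only messenger RNA was measured.

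The cells were A549, an established human lung carcinoma line, cultured for 24 h with ethanol extracts of multi-herb decoctions of Korean medicine or with vehicle. Doses were 20, 100 and 500 µg/mL, with 3 libraries per dose for Soshiho-tang and for Yijin-tang, and 2 per dose for Okbyeongpung-san. Soyo-san had 1 library at each dose and is described without a test. The vehicle group had 3 libraries; its labels give 0.1% DMSO, while the series text gives 2% DMSO. Since no label ties the replicates to different cultures, p-values measure only the spread between these libraries, which may be technical.

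Of the 30 libraries, 24 carry the batch letter E and 6 the letter D; all Soyo-san libraries and replicate 3 of each Okbyeongpung-san dose are batch D, and what the letter stands for is not given in the sources used here. Library totals were 24560759 to 38008463 counts in treated libraries and 19833144 to 22327652 in vehicle libraries. Mitochondrial messenger RNAs took 6.22 to 9.89% of counts in treated libraries and 10.5 to 10.9% in vehicle libraries. The vehicle libraries thus stood apart in depth and in mitochondrial share, and comparisons of 500 with 20 µg/mL, which do not use them, are given as well. The Okbyeongpung-san libraries at 500 µg/mL had a chi-square per degree of freedom of 40.4 between them. Within any other group it was at most 18.3. The fit shares its estimate of spread over groups, so SEs and adjusted p values of the Okbyeongpung-san 500 µg/mL group may be too small. Okbyeongpung-san replicate 2 at 500 µg/mL held both treated extremes, 38008463 counts and 9.89%. Calls of named genes that were lost without it are marked as such. Fits without it are not given for SMAD1, SMAD5, BMPR1B and TCF12, nor for the differences of BAMBI between extracts. Levels are given as CPM, counts scaled to the adjusted library total. The summed CPM of 7 epithelial markers were 6946 to 8842 in treated libraries and 8004 to 8341 in vehicle libraries. The 6 alveolar markers summed to 0.716 to 1.5 CPM in treated libraries and 0.696 to 1.04 CPM in vehicle libraries, where NKX2-1 and SFTPA1 had no count. A549 cells therefore carried an epithelial but not an alveolar signature. Endothelial markers summed to at most 0.376 CPM in any library, and 8 fibroblast markers to 27.5 to 45.1 CPM in treated and 43.0 to 45.0 CPM in vehicle libraries.

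The 3 upstream sequences below belong to the antagonist, to the ligand and to the inhibitory SMAD whose levels are described most fully. Each runs 5′ to 3′ on the gene's own strand, covers the 250 bases before a RefSeq transcription start on GRCh38.p14, and has in capitals every match, on either strand, to 2 motifs known to bind SMAD proteins: the GC-rich GGCGCC bound by SMAD1 and SMAD5, and the palindromic SMAD box GTCTAGAC. Where RefSeq lists several starts, the one nearest the GENCODE 29 start of the gene is shown; for BMP4, with 3 starts listed, that sequence lies inside the span GENCODE gives the gene, in no exon.
GREM1, chr15:32717754-32718003, plus strand: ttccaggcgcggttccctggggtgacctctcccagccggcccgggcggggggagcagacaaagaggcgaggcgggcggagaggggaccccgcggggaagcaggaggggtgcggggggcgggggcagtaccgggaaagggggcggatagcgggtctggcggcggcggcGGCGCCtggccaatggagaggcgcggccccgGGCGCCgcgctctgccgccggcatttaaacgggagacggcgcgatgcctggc
BMP4, chr14:53955051-53955300, minus strand: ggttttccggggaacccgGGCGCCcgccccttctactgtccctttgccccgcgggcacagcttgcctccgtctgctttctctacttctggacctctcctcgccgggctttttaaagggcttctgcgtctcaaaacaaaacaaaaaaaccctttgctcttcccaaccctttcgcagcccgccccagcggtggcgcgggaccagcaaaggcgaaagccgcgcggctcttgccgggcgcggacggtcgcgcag
SMAD6, chr15:66701986-66702235, plus strand: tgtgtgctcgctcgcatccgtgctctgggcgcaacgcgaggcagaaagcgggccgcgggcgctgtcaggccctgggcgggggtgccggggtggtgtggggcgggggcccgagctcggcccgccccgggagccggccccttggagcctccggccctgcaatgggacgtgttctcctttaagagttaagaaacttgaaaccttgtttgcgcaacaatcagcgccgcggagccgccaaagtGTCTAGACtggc
The GREM1 sequence held 2 GGCGCC matches, the BMP4 sequence 1 GGCGCC match and the SMAD6 sequence 1 GTCTAGAC match next to its start. Among 35116 RefSeq upstream sequences of the same length, 16.4% held GGCGCC and 0.182% held GTCTAGAC. The 250 bases before ID1, an established BMP target, held neither. A match is a string of letters and not a measured binding site. The last 30 bases of the GREM1 sequence and the last 8 of the SMAD6 sequence lie in the first exon of GENCODE 29.

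GREM1 (ENSG00000166923, chr15:32717974-32745107 on GRCh38, plus strand) was higher at 500 µg/mL of all 3 replicated extracts than in vehicle, and most so with Soshiho-tang. Its vehicle libraries had 7.18, 5.52 and 5.74 CPM. With Soshiho-tang, the libraries had 7.56, 6.73 and 7.08 CPM at 20 µg/mL, 8.32, 8.50 and 6.90 CPM at 100 µg/mL, and 14.9, 16.8 and 15.6 CPM at 500 µg/mL. The step lay between 100 and 500 µg/mL, and every library at 500 µg/mL was above every other library of the extract. With Yijin-tang, the libraries had 7.37, 6.62 and 6.36 CPM at 20 µg/mL, 9.13, 9.43 and 6.71 CPM at 100 µg/mL, and 12.1, 12.6 and 12.2 CPM at 500 µg/mL. Here too the 3 libraries at 500 µg/mL stood clear of the rest, while 1 of the 3 at 100 µg/mL lay within the range of the 20 µg/mL libraries. With Okbyeongpung-san, the libraries had 6.71 and 6.17 CPM at 20 µg/mL, 7.36 and 7.53 CPM at 100 µg/mL, and 7.88 and 8.66 CPM at 500 µg/mL. These steps were small beside those of the other extracts. The Soyo-san libraries had 6.66, 7.56 and 8.68 CPM at 20, 100 and 500 µg/mL; their exact Poisson intervals at the 95% level, which cover counting error only, were 5.74 to 7.68, 6.61 to 8.61 and 7.66 to 9.79 CPM.

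**Figure D1:**
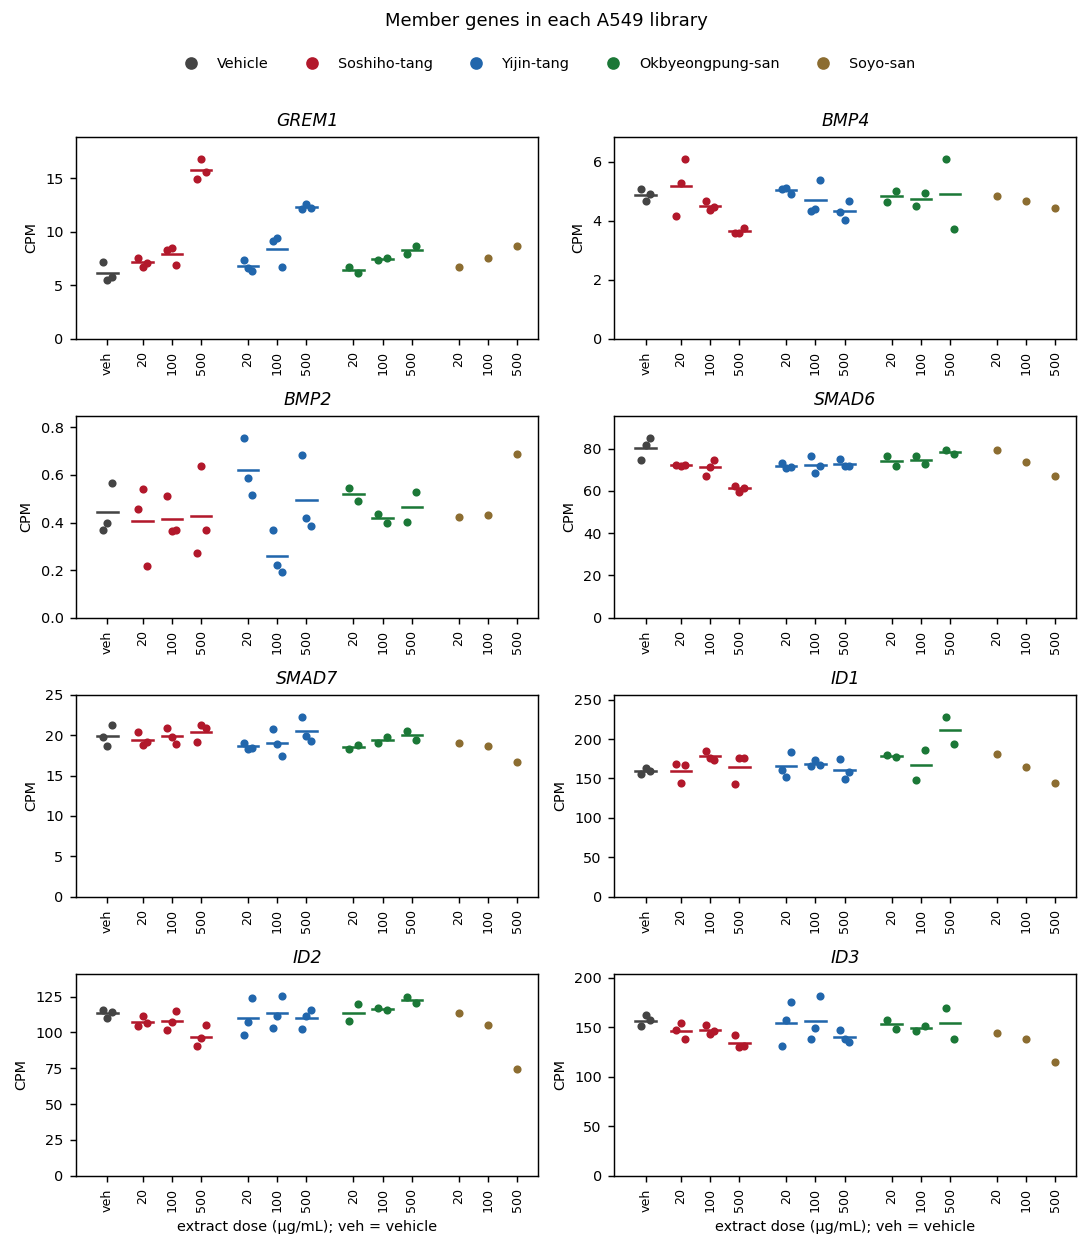
Level of each of the 8 genes in each of the 30 libraries, in CPM on linear axes that start at 0, by group, with vehicle at the left and doses in µg/mL from low to high. Points are libraries and horizontal lines are group means; Soyo-san has 1 library per dose and no line. GREM1 reaches 14.9 to 16.8 CPM at 500 µg/mL Soshiho-tang and 12.1 to 12.6 CPM at 500 µg/mL Yijin-tang, while SMAD6 falls to 59.6 to 62.4 CPM at 500 µg/mL Soshiho-tang.

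The fitted log2 fold change of GREM1 at 500 µg/mL against vehicle was 1.36 ± 0.11 (SE) for Soshiho-tang, 1.00 ± 0.12 for Yijin-tang and 0.43 ± 0.13 for Okbyeongpung-san. Against 20 µg/mL of the same extract it was 1.15 ± 0.11 for Soshiho-tang, 0.86 ± 0.11 for Yijin-tang and 0.36 ± 0.14 for Okbyeongpung-san. At 500 µg/mL, GREM1 was higher with Soshiho-tang than with Yijin-tang by 0.36 ± 0.10 and than with Okbyeongpung-san by 0.94 ± 0.12. Of 17459 genes, 1.17% had a larger log2 fold change than GREM1 at 500 µg/mL of Soshiho-tang against vehicle. For Yijin-tang at 500 µg/mL against vehicle the share was also 1.17%, and for Okbyeongpung-san at 500 µg/mL it was 9.31%. Ordered by group mean, Soshiho-tang 500 µg/mL (15.8 ± 0.98 CPM, SD) and Yijin-tang 500 µg/mL (12.3 ± 0.22 CPM) came first with no overlap between them. Then followed Yijin-tang 100 µg/mL (8.43 ± 1.49 CPM), Okbyeongpung-san 500 µg/mL (8.27 ± 0.55 CPM) and Soshiho-tang 100 µg/mL (7.90 ± 0.87 CPM), whose ranges overlapped, and the remaining groups ran down to vehicle (6.15 ± 0.90 CPM) with overlapping ranges between most neighbours. GREM1 overlaps GREM1-AS1 on the opposite strand, which had at most 0.195 CPM in any library and did not pass the filter.

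Per kilobase of its longest annotated transcript, GREM1 was a weakly expressed gene. In vehicle cells it had 0.421 ± 0.062 CPM per kb (SD, n = 3), against 2.55 ± 0.11 for BMP4 and 0.123 ± 0.030 for BMP2. The inhibitory SMADs had 15.5 ± 1.0 CPM per kb for SMAD6 and 4.51 ± 0.29 for SMAD7. The ID genes stood highest, with 129 ± 3.3 CPM per kb for ID1, 125 ± 4.4 for ID3 and 55.6 ± 1.3 for ID2. The target genes were thus expressed in vehicle cells at levels well above those of the ligands and of GREM1.

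Of the ligands, BMP4 (ENSG00000125378, chr14:53949736-53958761, minus strand) fell at 500 µg/mL of Soshiho-tang. Its libraries had 3.58, 3.57 and 3.75 CPM with Soshiho-tang at 500 µg/mL, against 5.08, 4.67 and 4.89 CPM in vehicle. All 3 treated libraries lay below all 3 vehicle libraries. The share of all genes whose groups separate in this way is not given, so here and below it only describes these libraries. The log2 fold change was -0.42 ± 0.15, with an adjusted p of 0.0312 by edgeR's quasi-likelihood test with Benjamini-Hochberg adjustment over all genes, which also gives every adjusted p that follows unless another tool is named. That call was lost when vehicle replicate 1 (adjusted p = 0.0888) or 3 (0.0727), or Soshiho-tang 500 µg/mL replicate 1 (0.0772), 2 (0.0792) or 3 (0.0531) was left out. Against 20 µg/mL, whose libraries had 4.14, 5.29 and 6.10 CPM, BMP4 was lower at 500 µg/mL by a log2 fold change of -0.52 ± 0.14 (adjusted p = 0.0104), or -0.38 (adjusted p = 0.0988) without replicate 3 at 20 µg/mL. At 100 µg/mL of Soshiho-tang the libraries had 4.65, 4.35 and 4.45 CPM, between the other doses apart from 1 library at 20 µg/mL.

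With Yijin-tang at 500 µg/mL, BMP4 had 4.30, 4.03 and 4.66 CPM, against 4.67 to 5.08 CPM in vehicle. The log2 fold change of -0.17 ± 0.14 did not pass (adjusted p = 0.462). With Okbyeongpung-san at 500 µg/mL, replicate 2 had 6.08 CPM and replicate 3 had 3.73 CPM, 1 above and 1 below every vehicle library. The mean of 4.91 CPM stood beside 4.88 CPM in vehicle, a log2 fold change of 0.03 ± 0.16 (adjusted p = 0.935). That SE takes its spread from all groups and does not describe the distance between these Okbyeongpung-san libraries. The difference of Soshiho-tang from Okbyeongpung-san at 500 µg/mL, -0.45 ± 0.16 (adjusted p = 0.0456), rested on Okbyeongpung-san replicate 2 and was -0.04 (adjusted p = 0.947) without it. It was also lost without Soshiho-tang 500 µg/mL replicate 1 (adjusted p = 0.0932), 2 (0.104) or 3 (0.0814). Within batch E, where replicate 2 is the 1 Okbyeongpung-san library at this dose and is assumed to vary like the other groups, the difference was -0.75 for Soshiho-tang (adjusted p = 0.00106) and -0.50 for Yijin-tang (adjusted p = 0.0225); with batch as a term it was -0.52 (adjusted p = 0.0234) and -0.27 (adjusted p = 0.285). BMP2 (ENSG00000125845, chr20:6767664-6780280, plus strand) lay between 0.192 and 0.757 CPM in every library. Its SEs at 500 µg/mL against vehicle were 0.36 to 0.40 on the log2 scale, so only changes well above that size could have been detected at this depth, and no comparison passed.

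SMAD6 (ENSG00000137834, chr15:66702228-66782848, plus strand), the BMP-branch inhibitory SMAD, had the lowest adjusted p of the 7 genes with Soshiho-tang at 500 µg/mL against vehicle. Its libraries had 62.4, 59.6 and 61.4 CPM with Soshiho-tang at 500 µg/mL, against 74.5, 81.7 and 85.2 CPM in vehicle. The 2 groups did not overlap. The log2 fold change was -0.40 ± 0.05 (adjusted p = 3.13e-06), and its adjusted p stayed at or below 7.30e-05 on leaving out any library of the 2 groups. Against 20 µg/mL of Soshiho-tang, where the libraries had 72.2, 71.9 and 72.1 CPM, it was lower at 500 µg/mL by a log2 fold change of -0.24 ± 0.05 (adjusted p = 0.00179).

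At 500 µg/mL, SMAD6 had 75.3, 71.8 and 71.6 CPM with Yijin-tang and 79.2 and 77.2 CPM with Okbyeongpung-san. Soshiho-tang was lower than Yijin-tang by a log2 fold change of -0.25 ± 0.05 (adjusted p = 0.00175) and lower than Okbyeongpung-san by -0.36 ± 0.06 (adjusted p = 9.99e-05). Neither Yijin-tang (-0.15 ± 0.05, adjusted p = 0.0606; DESeq2 adjusted p = 0.0336) nor Okbyeongpung-san (-0.04 ± 0.06, adjusted p = 0.685) passed against vehicle at 500 µg/mL. The dose effect itself, 500 against 20 µg/mL, differed between Soshiho-tang and Yijin-tang by -0.26 ± 0.07 (adjusted p = 0.0467) and between Soshiho-tang and Okbyeongpung-san by -0.31 ± 0.08 (adjusted p = 0.0201), beside 4.04% and 7.01% of all genes that passed these 2 tests. The first of these was above 0.05 on leaving out any 1 of its 12 libraries, with adjusted p between 0.0592 and 0.136. The other was lost without Okbyeongpung-san 500 µg/mL replicate 2 (adjusted p = 0.0929), Okbyeongpung-san 20 µg/mL replicate 3 (0.159) or Soshiho-tang 500 µg/mL replicate 2 (0.0576), and it was -0.18 with an offset for transcript length and GC content.

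At lower doses SMAD6 also passed against vehicle for Soshiho-tang at 100 µg/mL (-0.18, adjusted p = 0.0298), Yijin-tang at 100 µg/mL (-0.16, adjusted p = 0.0466) and Yijin-tang at 20 µg/mL (-0.17, adjusted p = 0.0438). Group means were 71.0, 72.3 and 71.8 CPM in these groups, against 80.5 ± 5.4 CPM in vehicle. Without vehicle replicate 3, the vehicle library with most SMAD6, the adjusted p values were 0.169, 0.239 and 0.222, and without vehicle replicate 2 they were 0.102, 0.137 and 0.137. Other treated libraries also decided these calls: they were lost without Soshiho-tang 100 µg/mL replicate 1 (0.164) or 2 (0.0692), Yijin-tang 100 µg/mL replicate 2 (0.180) or 3 (0.122), and Yijin-tang 20 µg/mL replicate 2 (0.106) or 3 (0.139). SMAD7 (ENSG00000101665, chr18:48919853-48952052, minus strand) stayed between 16.6 and 22.3 CPM in all 30 libraries. At 500 µg/mL it averaged 20.4 CPM with Soshiho-tang, 20.5 CPM with Yijin-tang and 20.0 CPM with Okbyeongpung-san, against 20.0 ± 1.3 CPM in vehicle. The interval of its log2 fold change ran from -0.10 to 0.17 for Soshiho-tang at 500 µg/mL, so a fall of the size seen in SMAD6 lay outside it.

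**Figure D2:**
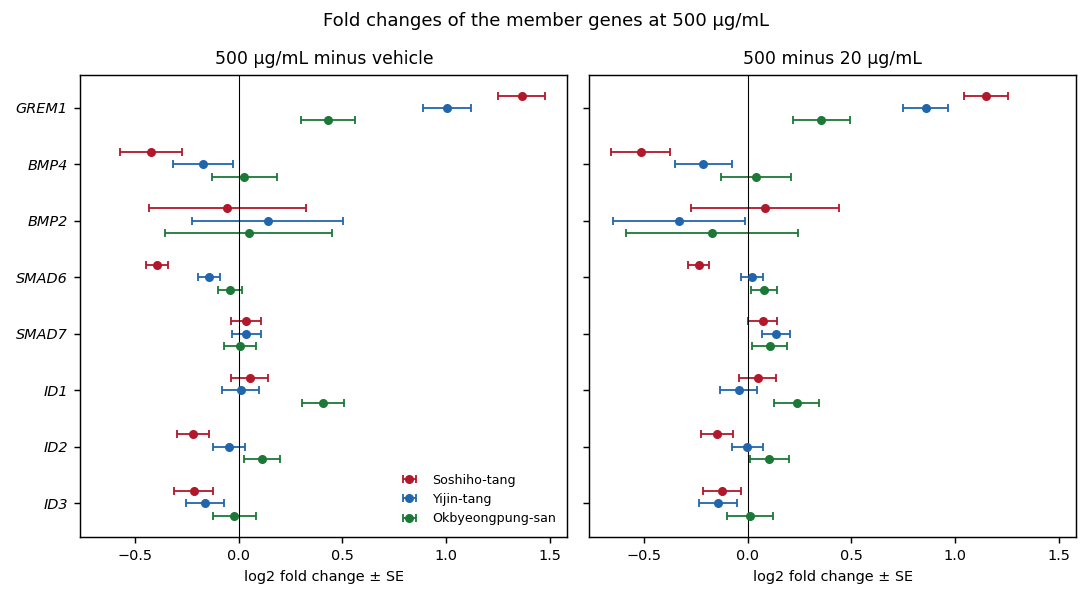
Log2 fold change of the 8 genes at 500 µg/mL against vehicle (left) and against 20 µg/mL of the same extract (right), as fitted value ± SE, for the 3 replicated extracts. GREM1 lies right of 0 in all 6 comparisons, from 0.36 to 1.36, and SMAD6 lies furthest from 0 on the left, relative to its SE, with Soshiho-tang (-0.40 ± 0.05 against vehicle).

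The ID genes, which encode the inhibitors of DNA binding, did not move as one. ID1 (ENSG00000125968, chr20:31605283-31606515, plus strand), often used as a readout of BMP signalling, had 143, 176 and 176 CPM with Soshiho-tang at 500 µg/mL, against 155, 163 and 160 CPM in vehicle. With Yijin-tang at 500 µg/mL it had 175, 149 and 158 CPM. Both groups overlapped vehicle, with log2 fold changes of 0.05 ± 0.09 (interval -0.12 to 0.23, adjusted p = 0.694) for Soshiho-tang and 0.01 ± 0.09 (interval -0.17 to 0.18, adjusted p = 0.964) for Yijin-tang. With Okbyeongpung-san at 500 µg/mL, ID1 had 229 CPM in replicate 2 and 193 CPM in replicate 3, both above every vehicle library. The log2 fold change was 0.41 ± 0.10 (adjusted p = 0.00919), but 0.28 (adjusted p = 0.153) without replicate 2, the deepest library and the only one of this group in batch E. Within batch E, where only that 1 library remained in the group, it was 0.54 (adjusted p = 0.00199), and with batch as a term 0.40 (adjusted p = 0.0139). ID1 was lower with Soshiho-tang than with Okbyeongpung-san at 500 µg/mL by -0.35 ± 0.10 (adjusted p = 0.0136) and lower with Yijin-tang by -0.40 ± 0.10 (adjusted p = 0.0337). Without Okbyeongpung-san replicate 2 these were -0.22 (adjusted p = 0.312) and -0.27 (adjusted p = 0.737). They were also lost without Soshiho-tang 500 µg/mL replicate 1 (adjusted p = 0.0750) and without Yijin-tang 500 µg/mL replicate 2 (0.120) or 3 (0.123). Within batch E they were -0.48 for Soshiho-tang (adjusted p = 0.00234) and -0.53 for Yijin-tang (adjusted p = 0.00239), both against the 1 Okbyeongpung-san library of that batch.

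ID2 (ENSG00000115738, chr2:8678845-8684453, plus strand) had 90.3, 96.2 and 105 CPM with Soshiho-tang at 500 µg/mL, against 116, 110 and 114 CPM in vehicle. The groups did not overlap, and the log2 fold change was -0.22 ± 0.08 (adjusted p = 0.0303). The call was lost without Soshiho-tang 500 µg/mL replicate 1 (adjusted p = 0.157) or 2 (0.0792), or vehicle replicate 1 (0.0847) or 3 (0.0746). Against 20 µg/mL the log2 fold change of -0.15 ± 0.08 did not pass (adjusted p = 0.195). With Okbyeongpung-san at 500 µg/mL, ID2 had 125 and 120 CPM, and Soshiho-tang was lower by -0.33 ± 0.09 (adjusted p = 0.00757; 0.101 without Okbyeongpung-san replicate 2). The antisense transcript ID2-AS1 overlaps ID2 and had 1.32 CPM on average; the counting's use of strand is not given in the sources used here.

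ID3 (ENSG00000117318, chr1:23557918-23559794, minus strand) had 142, 130 and 131 CPM with Soshiho-tang at 500 µg/mL and 147, 138 and 136 CPM with Yijin-tang at 500 µg/mL, against 151, 162 and 157 CPM in vehicle. All 6 of these treated libraries lay below the 3 vehicle libraries, a separation whose share over all genes is not given. The log2 fold changes of -0.22 ± 0.09 (adjusted p = 0.0726) and -0.16 ± 0.09 (adjusted p = 0.248) did not pass, nor did those against 20 µg/mL, -0.12 ± 0.09 (adjusted p = 0.387) and -0.14 ± 0.09 (adjusted p = 0.834), where the groups overlapped. Against vehicle, both passed with an offset for transcript length and GC content (adjusted p = 0.00212 and 0.0112) and when only the compared groups were fitted (adjusted p = 0.000924 and 0.0146). In the Soyo-san libraries at 20, 100 and 500 µg/mL, ID2 had 114, 105 and 74.5 CPM and ID3 had 144, 138 and 115 CPM. The counting intervals at 500 µg/mL were 71.5 to 77.6 CPM for ID2 and 111 to 119 CPM for ID3. The Soyo-san library at 500 µg/mL held the lowest value of ID2, ID3 and SMAD7 among all 30 libraries, with no replicate to set it against.

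Counted over the 7 genes other than GREM1, 0 rose and 3 fell (BMP4, ID2 and SMAD6) with Soshiho-tang at 500 µg/mL against vehicle. In that comparison 33.1% of all genes tested passed in either direction and 16% passed as lower. The median log2 fold change of the 7 genes was -0.22, beside 0.01 for all genes. With 500 against 20 µg/mL of Soshiho-tang, 2 of 7 fell (BMP4 and SMAD6), where 20.6% of all genes passed and 10.2% passed as lower. With Yijin-tang at 500 µg/mL against vehicle, where 15.7% of genes passed, 0 of 7 passed; SMAD6 alone had an unadjusted p below 0.05 and alone passed by DESeq2. With 500 against 20 µg/mL of Yijin-tang, where 0.705% of genes passed, 0 of 7 passed by edgeR, by its unadjusted p or by DESeq2. With Okbyeongpung-san, 1 of 7 rose against vehicle at 500 µg/mL (ID1; 14.9% of genes passed, 7.19% as higher). Against 20 µg/mL of Okbyeongpung-san, where 1.59% of genes passed, 0 of 7 passed by edgeR or DESeq2, and ID1 had an unadjusted p below 0.05.

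Between extracts at 500 µg/mL, 1 of 7 was lower with Soshiho-tang than with Yijin-tang (SMAD6), beside 12.6% of genes that passed and 6.29% that passed as lower. Soshiho-tang was lower than Okbyeongpung-san in 4 of 7 (BMP4, ID1, ID2 and SMAD6), beside 18.7% and 9.55%. Yijin-tang was lower than Okbyeongpung-san in 1 of 7 (ID1), beside 2.31% and 1.45%. At lower doses against vehicle, SMAD6 was the 1 gene of 7 that passed with Soshiho-tang at 100 µg/mL (10.8% of genes passed, 5.19% as lower), Yijin-tang at 100 µg/mL (14.7% and 6.82%) and Yijin-tang at 20 µg/mL (10.2% and 5.16%). None of the 7 passed with Soshiho-tang at 20 µg/mL (8.02%), where SMAD6 had an unadjusted p below 0.05 and passed by DESeq2. None passed with Okbyeongpung-san at 100 µg/mL (9.49%) or 20 µg/mL (10.2%), by edgeR, by its unadjusted p or by DESeq2. The mitochondrial share of counts moved with every comparison against vehicle: 12 of 13 mitochondrial messenger RNAs fell with Soshiho-tang at 500 µg/mL, 11 with Yijin-tang and 7 with Okbyeongpung-san. Without Okbyeongpung-san replicate 2 the last number was 12, and without replicate 3 it was 1. In the comparisons of 500 with 20 µg/mL, 1, 0 and 0 of the 13 fell. The part of this shift in the results was not tested.

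Across the 10 replicated groups, the mean levels of GREM1 and of the other genes were set against each other on the log2(CPM + 0.1) scale. Pearson's r with GREM1 was -0.91 for BMP4, -0.87 for ID3, -0.74 for SMAD6, -0.61 for ID2, -0.16 for BMP2, -0.10 for ID1 and 0.67 for SMAD7. Over 11187 genes with a symbol and a mean log2 CPM of at least 2, the median r was -0.01, with 5th and 95th percentiles of -0.77 and 0.81. BMP4 and ID3 lay below the 5th percentile of all genes, and the other 5 lay within the range. The 2 groups with most GREM1, Soshiho-tang and Yijin-tang at 500 µg/mL, carried much of these values. Without them, r over 8 groups was -0.54 for BMP4, -0.23 for ID3, -0.31 for SMAD6 and 0.26 for ID2. Spearman's rho over the 10 groups was -0.83 for BMP4, -0.56 for ID3, -0.42 for SMAD6 and -0.28 for ID2. These values are descriptions of group means that share libraries, doses and extracts.

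**Figure D3:**
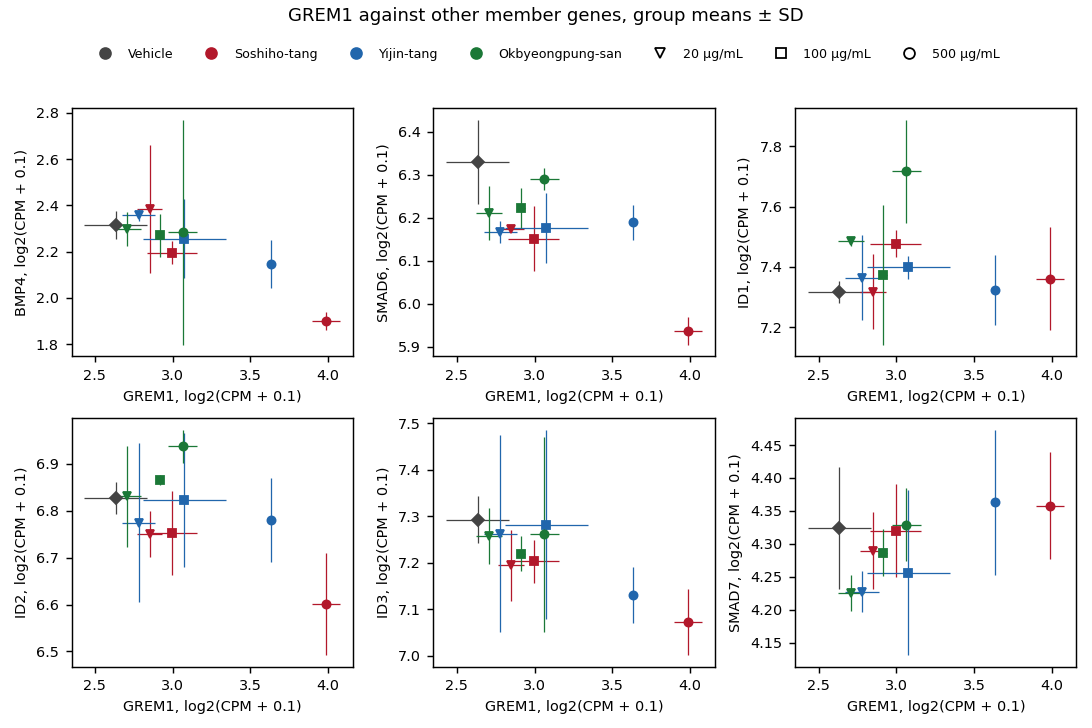
Mean log2(CPM + 0.1) ± SD of 6 genes against that of GREM1 in the 10 replicated groups; colour marks the extract and symbol the dose, with vehicle as a diamond. The 2 points at the right of every panel are Yijin-tang and Soshiho-tang at 500 µg/mL; BMP4 runs downwards over the groups (r = -0.91), and ID1 shows no slope (r = -0.10).

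The genes whose group means most resembled those of GREM1 were TRAF5, CELSR3, GALNT10 and LONRF1, with r of 0.97 to 0.98 over the 10 groups. TRAF5, a signalling adaptor of the TNF receptor family, had 27.6 CPM with Soshiho-tang and 25.4 CPM with Yijin-tang at 500 µg/mL, against 21.6 CPM in vehicle. CELSR3, an atypical cadherin, had 20.6 and 18.8 CPM in the same 2 treated groups, against 14.9 CPM in vehicle. The lowest r values, -0.97 to -0.96, belonged to ARRB1, GDPD5, CPLX2 and ZBED1. ARRB1, which encodes beta-arrestin, had 5.08 CPM with Soshiho-tang and 6.58 CPM with Yijin-tang at 500 µg/mL, against 9.70 CPM in vehicle.

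Among the other secreted BMP antagonists, Soshiho-tang at 500 µg/mL moved genes both ways. Of 15 listed antagonists other than GREM1, 11 passed the filter. Against vehicle FST, FSTL1 and BMPER rose, in a comparison that 33.1% of all genes passed. NBL1 and CHRD were among those that fell, whose full number is not given here. The median log2 fold change of the 11 was -0.06 beside 0.01 for all genes. BMPER, a secreted BMP-binding protein, had 11.2 ± 0.59 CPM with Soshiho-tang at 500 µg/mL, against 5.88 ± 0.57 CPM in vehicle (SD, n = 3 each), a log2 fold change of 0.92 ± 0.10 (adjusted p = 1.13e-07). It was also higher than at 20 µg/mL by 0.67 ± 0.09 (adjusted p = 7.83e-06). With Yijin-tang at 500 µg/mL, BMPER had 6.75 ± 0.74 CPM and did not pass against vehicle (adjusted p = 0.195). FST, which binds activins and some BMPs, rose by 0.40 ± 0.09 (adjusted p = 0.000838) and FSTL1 by 0.29 ± 0.05 (adjusted p = 4.62e-05) with Soshiho-tang at 500 µg/mL against vehicle. FST did not pass against 20 µg/mL (0.18 ± 0.08, adjusted p = 0.131), and FSTL1 did (0.15 ± 0.05, adjusted p = 0.0222) except without Soshiho-tang 500 µg/mL replicate 3 (adjusted p = 0.0828). NBL1, a relative of gremlin, fell, with 12.7 ± 0.44 CPM at 500 µg/mL of Soshiho-tang, against 17.5 ± 1.62 CPM in vehicle (-0.46 ± 0.10, adjusted p = 0.00137), and was lower than at 20 µg/mL by the same size (-0.46 ± 0.10, adjusted p = 0.00179). CHRD averaged 0.0577 ± 0.054 CPM with Soshiho-tang at 500 µg/mL, against 0.274 ± 0.21 CPM in vehicle, a level at which few reads were counted (adjusted p = 0.0318). It lies below the mean log2 CPM of 1 set for named genes. The call was lost in 4 of 6 fits that left out 1 library, with adjusted p up to 0.232, and CHRD did not pass against 20 µg/mL (adjusted p = 0.113). With Yijin-tang only FSTL1 rose among the 11 against vehicle (0.29 ± 0.05, adjusted p = 0.000369), and with Okbyeongpung-san 0 passed by edgeR or DESeq2, while BMPER and NBL1 had an unadjusted p below 0.05. Of all genes tested, 15.7% passed with Yijin-tang and 14.9% with Okbyeongpung-san at 500 µg/mL against vehicle.

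Among 12 further BMP ligands, 6 passed the filter, and BMP6 was the 1 ligand called. At 500 µg/mL against vehicle, 33.1% of all genes passed with Soshiho-tang, 15.7% with Yijin-tang and 14.9% with Okbyeongpung-san. Against 20 µg/mL of the same extracts, 20.6%, 0.705% and 1.59% passed. BMP6 had 10.0 ± 1.14 CPM with Soshiho-tang and 11.2 ± 0.41 CPM with Yijin-tang at 500 µg/mL, against 15.5 ± 0.14 CPM in vehicle (SD, n = 3 each). Against 20 µg/mL it fell by 0.74 ± 0.09 on the log2 scale with Soshiho-tang (adjusted p = 5.83e-07) and by 0.63 ± 0.08 with Yijin-tang (adjusted p = 9.37e-05). With Okbyeongpung-san the change against 20 µg/mL was -0.15 ± 0.10 (adjusted p = 0.438). BMP6 was thus lower in both groups in which GREM1 was highest.

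Of 9 other BMP target genes, 7 passed the filter. With Soshiho-tang at 500 against 20 µg/mL, 4 fell and 1 rose, where 20.6% of all genes passed and 10.2% passed as lower. The median log2 fold change of the 7 was -0.31 beside 0.0033 for all genes. ID4, the remaining ID family gene, had 10.1 ± 0.64 CPM at 500 µg/mL, against 13.3 ± 0.56 CPM at 20 µg/mL (-0.40 ± 0.07, adjusted p = 0.00031). HEY1, a transcriptional repressor shared with Notch signalling, fell by 0.54 ± 0.15 on the log2 scale (adjusted p = 0.0114), and MSX2, a homeobox factor, by 0.36 ± 0.11 (adjusted p = 0.0227). The HEY1 call was lost without Soshiho-tang 500 µg/mL replicate 2 (adjusted p = 0.0959), and that of MSX2 without the same library (0.125) or replicate 1 at 20 µg/mL (0.0964). TBX3, a T-box factor, also fell, with 58.3 CPM at 500 µg/mL against 70.0 CPM at 20 µg/mL (-0.26 ± 0.05, adjusted p = 0.000365). RUNX2, a factor of bone formation, rose, with 1.33 CPM at 500 µg/mL against 0.581 CPM at 20 µg/mL (1.18 ± 0.28, adjusted p = 0.00308); it lies below the expression limit for named genes and was singled out after its values were seen. With Yijin-tang, 0 of the 7 passed at 500 µg/mL against vehicle or against 20 µg/mL by edgeR or DESeq2. By unadjusted p, 0 were below 0.05 against vehicle and 2, ID4 and MSX1, against 20 µg/mL. Of all genes tested, 15.7% passed the first of these comparisons and 0.705% the other. With Okbyeongpung-san at 500 µg/mL, ATOH8, a helix-loop-helix factor induced by BMPs in endothelial cells, had 25.2 ± 4.47 CPM, against 16.5 ± 1.4 CPM in vehicle (0.61 ± 0.10, adjusted p = 0.000309). Replicate 2 had 28.4 CPM and replicate 3 had 22.1 CPM, and without replicate 2 the fold change was 0.42 (adjusted p = 0.0202). ATOH8 was also higher than at 20 µg/mL by 0.54 ± 0.11 (adjusted p = 0.00904), a call lost without 500 µg/mL replicate 2 (0.430), 20 µg/mL replicate 2 (0.117) or 20 µg/mL replicate 3 (0.116). TBX3 was the other target called against vehicle (0.17 ± 0.05, adjusted p = 0.0422), a comparison that 14.9% of all genes passed. That call was lost on leaving out any 1 of the 5 libraries, with adjusted p up to 0.165.

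Among 12 receptors and co-receptors, of which 10 passed the filter, BAMBI differed between extracts at 500 µg/mL. BAMBI encodes a decoy receptor without a kinase domain and is itself induced by BMP signalling. It had 29.7 ± 1.61 CPM with Okbyeongpung-san at 500 µg/mL, against 20.4 ± 1.95 CPM in vehicle (0.54 ± 0.08, adjusted p = 7.77e-05; 0.49 and 0.00303 without replicate 2). Soshiho-tang at 500 µg/mL had 20.9 ± 1.32 CPM and did not pass against vehicle (0.03 ± 0.07, adjusted p = 0.756), and it was lower than Okbyeongpung-san at that dose by -0.51 ± 0.07 (adjusted p = 2.56e-05). At 20 µg/mL both extracts stood above vehicle, at 25.6 ± 1.13 CPM for Soshiho-tang and 25.9 ± 1.18 CPM for Okbyeongpung-san. Soshiho-tang at 500 µg/mL was lower than at 20 µg/mL by -0.29 ± 0.07 (adjusted p = 0.00249) and Okbyeongpung-san did not pass (0.20 ± 0.08, adjusted p = 0.206). The 2 dose effects differed by -0.49 ± 0.11 (adjusted p = 0.00444). For these differences of BAMBI between extracts, fits without Okbyeongpung-san replicate 2 are not given. BMPR2, the type II BMP receptor, was called lower at 500 µg/mL against vehicle with Soshiho-tang (-0.29 ± 0.11, adjusted p = 0.0404), a call lost in 5 of 6 fits that left out 1 library, with adjusted p up to 0.148. With Okbyeongpung-san (-0.38 ± 0.12, adjusted p = 0.0368), replicate 2 had 78.8 CPM and replicate 3 had 109 CPM, and the value was -0.16 (adjusted p = 0.510) without replicate 2; the call was also lost without any 1 vehicle library. Neither extract passed against 20 µg/mL (adjusted p = 0.256 and 0.295). Of the 10 SMAD transducers and regulators, SKI, a co-repressor of SMADs, fell against vehicle with Soshiho-tang (-0.57 ± 0.11, adjusted p = 0.000264) and did not pass against 20 µg/mL (-0.18 ± 0.11, adjusted p = 0.251). SKI was also lower against vehicle at 500 µg/mL of Yijin-tang (-0.45, adjusted p = 0.00588) and of Okbyeongpung-san (-0.41, adjusted p = 0.0243). The Okbyeongpung-san call was lost in 3 of 5 fits that left out 1 library, among them that without replicate 2 (0.164). SMURF2, a ubiquitin ligase that targets SMADs and receptors, rose with Soshiho-tang at 500 against 20 µg/mL (0.35 ± 0.08, adjusted p = 0.0019). Of the 3 E-proteins that ID proteins bind, TCF3 fell with Soshiho-tang against vehicle (-0.33 ± 0.09, adjusted p = 0.00539) and did not pass against 20 µg/mL (-0.17 ± 0.09, adjusted p = 0.180). Okbyeongpung-san at 500 µg/mL against vehicle, a comparison that 14.9% of all genes passed, had further falls near the threshold. They were SMAD1 (-0.28, adjusted p = 0.0460), SMAD5 (-0.26, 0.0440), the receptor BMPR1B (-0.27, 0.0383) and the E-protein TCF12 (-0.25, 0.0474). Fits of these genes with a library left out are not given.

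**Figure D4:**
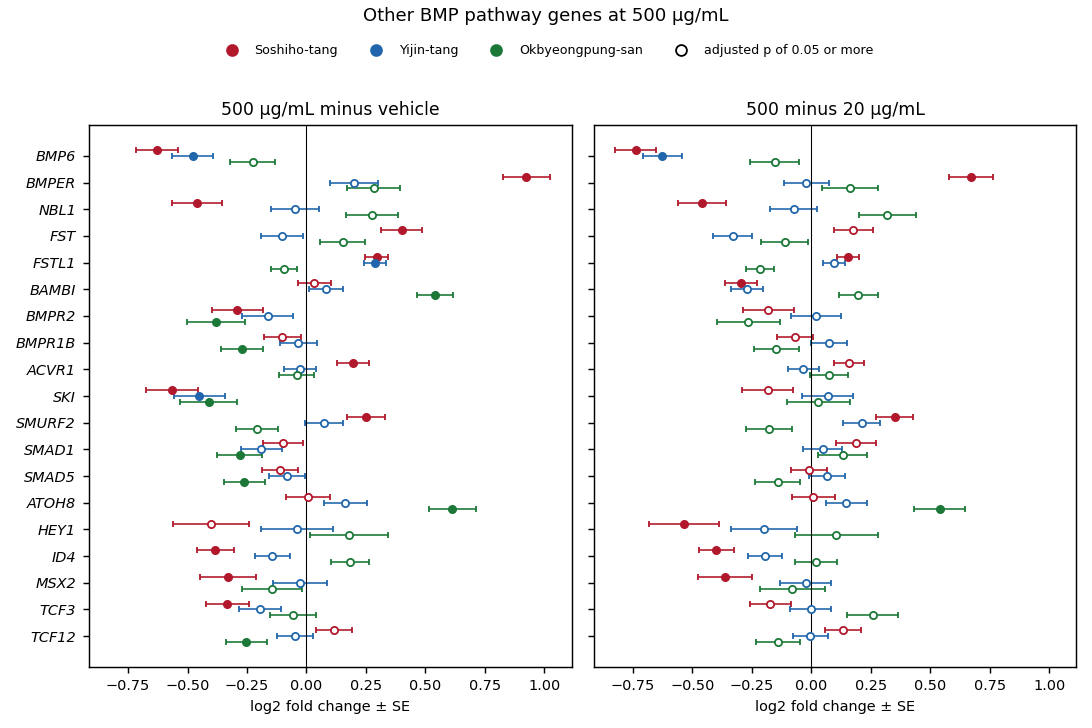
Log2 fold change ± SE of the named BMP pathway genes, all with a mean log2 CPM of at least 1, at 500 µg/mL against vehicle (left) and against 20 µg/mL of the same extract (right), for the 3 replicated extracts; filled points have an adjusted p below 0.05 and open points do not. Among the genes drawn, BMPER with Soshiho-tang lies furthest to the right (0.92 against vehicle), and BMP6 is left of 0 in all 6 comparisons.

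The TGF-beta branch, which signals through SMAD2 and SMAD3, was set beside the BMP branch. Of 6 listed TGF-beta and activin ligands, 5 passed the filter, and with Soshiho-tang at 500 against 20 µg/mL 4 fell and 1 rose, where 20.6% of all genes passed and 10.2% passed as lower. TGFB2 had 58.9 ± 5.1 CPM at 500 µg/mL of Soshiho-tang, against 79.7 ± 4.57 CPM at 20 µg/mL (-0.44 ± 0.10, adjusted p = 0.00286) and 101 ± 1.15 CPM in vehicle. INHBB, an activin subunit, fell by 0.44 ± 0.07 on the log2 scale (adjusted p = 0.000118). The 5 ligands had a median log2 fold change of -0.44 in this comparison. The other 2 that fell were TGFB1 and TGFB3, and the 1 that rose was INHBE. Among the listed target genes of SMAD2 and SMAD3, LTBP2, which encodes a latent TGF-beta binding protein, rose in the same comparison (0.49 ± 0.06, adjusted p = 9.70e-07). With 500 against 20 µg/mL of Yijin-tang, 0 of the 5 ligands passed by edgeR or DESeq2, and INHBB alone had an unadjusted p below 0.05. With Okbyeongpung-san 0 of the 5 passed there either. Of all genes tested, 0.705% passed at 500 against 20 µg/mL of Yijin-tang and 1.59% at those doses of Okbyeongpung-san. Against vehicle, TGFB2 was lower at 500 µg/mL of each replicated extract. The log2 fold change was -0.77 with Soshiho-tang (adjusted p = 2.82e-06), -0.49 with Yijin-tang (0.00199) and -0.76 with Okbyeongpung-san (0.000165). These calls were kept on leaving out any 1 library.

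Of 3 tested genes beside GREM1 on chromosome 15, 2 fell at 500 against 20 µg/mL of Soshiho-tang and 0 rose, where 20.6% of all genes passed and 10.2% passed as lower. FMN1 had 4.85 ± 0.36 CPM with 500 µg/mL of Soshiho-tang, against 6.14 ± 0.22 CPM with 20 µg/mL (-0.34 ± 0.11, adjusted p = 0.0229), a call lost in 3 of 6 fits that left out 1 library (adjusted p up to 0.124). ARHGAP11A had 171 ± 5.84 CPM, against 214 ± 5.20 CPM (-0.32 ± 0.07, adjusted p = 0.00102). SCG5 was near the detection limit, with 0.681 ± 0.039 CPM at 500 µg/mL and 0.335 ± 0.12 CPM at 20 µg/mL, and did not pass in that comparison (adjusted p = 0.0602); against vehicle, at 0.284 ± 0.090 CPM, it passed (1.26 ± 0.43, adjusted p = 0.0274), but not in 4 of 6 fits that left out 1 library (adjusted p up to 0.124). With Yijin-tang at 500 against 20 µg/mL, none of the 3 passed by edgeR or DESeq2, and 0 had an unadjusted p below 0.05. With Okbyeongpung-san none of the 3 passed against 20 µg/mL either. Of all genes tested, 0.705% passed in this comparison of Yijin-tang and 1.59% in that of Okbyeongpung-san. Against vehicle, Okbyeongpung-san at 500 µg/mL had lower FMN1 (-0.48, adjusted p = 0.00993) and ARHGAP11A (-0.31, adjusted p = 0.00835). Both calls were lost without its replicate 2 (0.188 and 0.189). Soshiho-tang also had lower FMN1 (-0.46, 0.00197) and ARHGAP11A (-0.42, 2.80e-05) than vehicle. Fibroblasts are a known source of gremlin in tissue. The 8 fibroblast markers summed to 27.5 to 33.4 CPM with Soshiho-tang at 500 µg/mL, against 43.0 to 45.0 CPM in vehicle, and DCN had no count in either group. Of the 5 that passed the filter, COL1A1 alone was called (-0.75 ± 0.10, adjusted p = 5.93e-06), beside 33.1% of all genes. LUM had 0.680 CPM against 0.636 CPM in vehicle and PDGFRA 0.510 CPM against 0.500 CPM. With Yijin-tang at 500 µg/mL COL1A1 had 29.5 ± 2.81 CPM, against 30.4 ± 1.85 CPM in vehicle (adjusted p = 0.818). The part of these markers in the level of GREM1 was not tested.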

How the data were processed

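RNA was read from 30 A549 libraries made with a directional messenger RNA kit, per the labels' protocols. The authors deposited expected counts per gene; RSEM 1.3.3, STAR 2.7.3a, Trim Galore 0.6.5 and FastQC 0.11.9 are named in the submitters' processing notes, and GENCODE 29 symbols on GRCh38 were matched by identifier. Expected counts were rounded. Of all values in a library, zeros included, 9.09 to 11.6% were not whole. The quasi-likelihood test of edgeR 4.0.16 (R 4.3.3, TMM, filterByExpr) was fitted to 27 libraries in 10 groups without a replicate block, with Benjamini-Hochberg adjustment over 17459 genes and a threshold of 0.05; Soyo-san was left out of the fit. CPM use TMM-adjusted totals, and the SE is the fold change over the square root of F. DESeq2 1.42.0, other scalings, filters, batch terms and left-out libraries were alternatives. The script was tested on simulated data. Intervals of log2 fold changes are at the 95% level and come from the SE, so they include the spread between libraries. Exact Poisson intervals of the Soyo-san libraries cover counting error only. Reads without molecular identifiers are not independent molecules, so these Poisson intervals may be too narrow.

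The member genes and all gene lists were chosen with earlier results of these data known. From each list, up to 4 called genes with the largest change at 500 µg/mL and a mean log2 CPM of at least 1 were named. Some listed genes are not reported here.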

Additional observations from a re-analysis of the deposited data

Results flagged for a closer look

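The effect of 500 against 20 µg/mL on SMAD6 differed between extracts by a test of the difference itself. It was -0.257 on the log2 scale for Soshiho-tang minus Yijin-tang (adjusted p = 0.0467 by edgeR's quasi-likelihood test): the dose effect was -0.24 with Soshiho-tang and 0.02 with Yijin-tang. For Soshiho-tang minus Okbyeongpung-san the difference was -0.314 (adjusted p = 0.0201), with a dose effect of 0.08 for Okbyeongpung-san. All 3 libraries of Soshiho-tang at 500 µg/mL were below all 3 at 20 µg/mL, with no such separation for Yijin-tang. Of all genes tested, 4.04% and 7.01% passed the same 2 tests. The call against Yijin-tang was lost on leaving out any 1 of its 12 libraries (adjusted p from 0.0592 to 0.136), with no filter on low counts (0.146), with a replicate block (0.0505) and in batch E alone (0.0527). The call against Okbyeongpung-san was lost in 3 of 10 such fits (adjusted p up to 0.159), in batch E alone (0.0711), with only the compared groups fitted (0.0697) and with an offset for length and GC content (0.239). All these values kept the direction.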

How the results depend on the processing

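GREM1 kept its direction at 500 µg/mL in every comparison and alternative run; Soshiho-tang against vehicle ran from 1.29 to 1.49 over left-out libraries. The fall of SMAD6 with Soshiho-tang at 500 µg/mL, against vehicle, 20 µg/mL, Yijin-tang and Okbyeongpung-san, passed under all of them. The number of the other 7 genes that passed changed elsewhere. With only the compared groups fitted it was 2 for Yijin-tang against vehicle, 0 for Okbyeongpung-san against vehicle, 1 for Soshiho-tang against Okbyeongpung-san and 0 for Yijin-tang against Okbyeongpung-san. With an offset for length and GC content it was 1, 0, 2 and 0 in the same comparisons. DESeq2 gave 1 for Yijin-tang against vehicle, and batch E libraries alone gave 2 for Yijin-tang against Okbyeongpung-san. With a replicate block, Soshiho-tang against Yijin-tang had 2. Same-numbered libraries showed a weak and uneven likeness. Their median r was 0.06 over 111 pairs (41 above 0.1), against -0.01 for other-numbered pairs. Of the 27 libraries, 19 correlated best with their own number. The main fit does not use the block, so any such pairing stays in its spread. Leaving out 1 library gave 1 to 3 for Soshiho-tang against vehicle, 0 to 1 for Yijin-tang, 0 to 1 for Okbyeongpung-san, 1 to 2 for Soshiho-tang at 500 against 20 µg/mL, 1 to 5 for Soshiho-tang against Okbyeongpung-san and 0 to 2 for Yijin-tang against Okbyeongpung-san. BMP4 in Yijin-tang against Okbyeongpung-san ran from -0.48 to 0.21 over left-out libraries, the 0.21 without Okbyeongpung-san replicate 2. The relation of GREM1 to ID1 turned to a Spearman rho of 0.13, and to r = 0.52 without 2 groups, and that to ID2 to 0.26. Of 126 pairs of gene and comparison, 99 passed under no setting. The cause of these changes was not tested. Groups of 2 or 3 libraries, and 12 or fewer counts of BMP2 per vehicle library, limit what could be detected.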
